A study of Melitaea cinxia with 174 samples.

Results

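The transcripts of hedgehog (MCINXTMP_007389), patched (MCINXTMP_007513) and wingless (MCINXTMP_006032) were followed through thorax RNA of 174 adult Glanville fritillaries (Melitaea cinxia), a butterfly of dry meadows around the Baltic. These 3 gene models of 16667 were taken by their identifiers from the read counts and from the normalized counts of each individual. Larvae were collected from 4 regional populations and reared under common garden conditions, and adults were sampled at 3 days of age, 1 per larval family. The population from the Åland Islands is labelled AL (23 females, 26 males) and that from the Uppland coast UP (11 females, 9 males), and both come from fragmented landscapes. Saaremaa is labelled SA (28 females, 35 males) and Öland OL (15 females, 27 males), and both have continuous landscapes. No individual was treated, and the landscape type was taken from the study's methods, since the labels give population and sex. With 2 populations of each type, no rearrangement of whole populations can give a two-sided p below 0.333, so that all p-values below measure the difference against the spread between individuals.

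Hedgehog is a secreted signalling protein that binds the membrane receptor patched. Without the ligand, patched keeps the transducer smoothened silent, and binding releases smoothened and, through it, the transcription factor cubitus interruptus. In Drosophila, patched is itself a target of the pathway and wingless, a Wnt ligand, is activated by hedgehog signalling in cells beside those that secrete hedgehog. Wingless acts through frizzled receptors, dishevelled and armadillo. Both pathways are known from the embryo and from the imaginal discs that form the wings and the thorax wall, and in butterflies from the development of wing patterns, whereas the thorax of the adult is mostly flight muscle.

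All 3 genes had few reads. Hedgehog was covered by 1839 reads in all individuals together, patched by 316 and wingless by 265. Total counts per individual ranged from 442717 to 7742394, with medians of 2550153 in AL, 3584944 in UP, 1895936 in SA and 3008807 in OL. Reads came from the 3′ part of polyadenylated transcripts, and levels are given below as CPM (counts per 1000000) after TMM normalization (trimmed mean of M values), called normalized counts. Of the 3 genes only hedgehog passed edgeR's filter on low counts (minimum count 10), which 8976 gene models passed in all individuals. No 2 individuals of a population had counts that differed by as little as sampling noise.

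Some features of the libraries bear on every comparison below. The 4 flight muscle genes (Kettin, 2 troponin C genes and myosin heavy chain) summed to between 1213 and 5732 normalized counts in each individual, so that muscle was present in all libraries. The 21 cuticular protein genes summed to a median of 14272 normalized counts in the fragmented populations (range 1417 to 65235) and 5620 in the continuous populations (range 628 to 27392), and 18 of them were higher and 2 lower in the fragmented populations at FDR<0.05. The 4 hexamerins, storage proteins of the fat body, had medians of 3.41 (range 0 to 1468) and 1.34 (range 0 to 23.2) normalized counts, and all 4 were higher in the fragmented populations. None of these marker genes lacked reads altogether, and many were named by the study for their differences in these same samples. The study annotated further hexamerin and cuticle protein genes, which are not in these sums. In whole thorax, fewer cells of a type and less RNA per cell cannot be told apart. The 50 gene models with the smallest p between the sexes lay mostly on the side of the other sex in 8 individuals, with 26 to 46 of them, and results without these 8 are given where a call changes. The sequencing run of an individual is not given in the labels used here, and its part in any difference was not tested.

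Hedgehog transcripts were more abundant in the populations from fragmented landscapes in both sexes. In AL females the level ranged from 0 through a median of 3.92 to 9.91 normalized counts, and in AL males from 0 through 4.36 to 23.9. UP females ranged from 1.75 through 4.44 to 8.62, and UP males from 2.10 through 5.16 to 15.0. All 4 of these medians exceeded all 4 medians of the continuous populations. SA females ranged from 0 through 2.26 to 7.23, and SA males from 0 through 2.51 to 12.9. In OL the values ran from 0.475 through 1.97 to 6.10 in females and from 0 through 1.66 to 8.02 in males. Individuals of all groups overlapped, although the interquartile range of the AL individuals (2.77 to 6.54) and that of the OL individuals (1.06 to 2.48) did not.

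**Figure D1:**
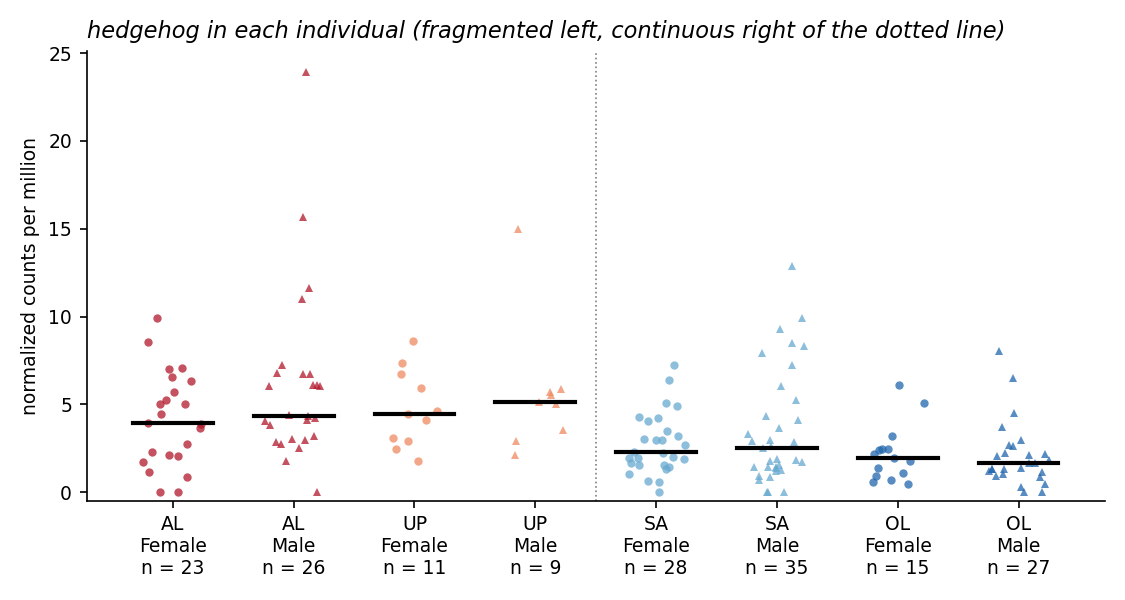
Hedgehog level of each individual in normalized counts (CPM), by population and sex, with circles for females, triangles for males and a black line at the median of each group. The 4 medians left of the dotted line (fragmented landscapes) lie between 3.92 and 5.16 and the 4 on the right (continuous landscapes) between 1.66 and 2.51, with wide overlap of individuals.

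The mean level of hedgehog was 5.17 ± 4.12 (SD, n = 49) in AL, 5.14 ± 2.94 (n = 20) in UP, 3.19 ± 2.69 (n = 63) in SA and 2.12 ± 1.74 (n = 42) in OL. With both sexes weighted equally, hedgehog was 1.96-fold higher in the fragmented than in the continuous populations (95% interval 1.55 to 2.49; log2 fold change 0.97 ± 0.18 SE; edgeR quasi-likelihood F-test on all 174 individuals, FDR = 3.22e-06 over 16462 gene models). In the same comparison 27% of all gene models passed FDR<0.05, so that such a difference is common in these data. Permuting the landscape labels 100000 times gave the smallest p that so many permutations can give, 1e-05 (FDR = 0.000269), in a test where 19.5% of gene models passed FDR<0.05. The difference was 1.37 ± 0.24 on the log2 scale in the balanced set of the 15 deepest individuals per population (FDR = 4.39e-05, 16.2% of gene models called), where the permutation test gave FDR = 0.000837 (11.3% called). Thinned to a total of 1000000 per individual, the counts of the balanced set gave 1.15 ± 0.41, which did not pass (FDR = 0.0915). Among the 114 individuals outside that set, which include only 5 from UP, the difference did not pass the test (0.51 ± 0.31, FDR = 0.354, 7.2% called). That fit has 1 mean per population and sex, and the same form gave 1.47 in the balanced set, whose main fit has 1 mean per population. The mean in SA was 2.54 ± 1.57 inside the balanced set (n = 15) and 3.39 ± 2.94 outside it (n = 48), and in UP 5.73 ± 3.10 (n = 15) and 3.38 ± 1.53 (n = 5). Neither fit tests whether the difference itself depends on being in the set.

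The populations fell into the order AL and UP, then SA, then OL for hedgehog. AL and UP did not differ beyond their spread (log2 difference −0.04 ± 0.27, FDR = 1.0, 9.46% of gene models called), and the 95% interval of their ratio ran from 0.670 to 1.41. Hedgehog was higher in AL than in SA by 0.69 ± 0.21 (FDR = 0.00388, 40.2% called) and higher in UP than in SA by 0.73 ± 0.26 (FDR = 0.0268, 25.8% called). The differences from OL were larger, at 1.22 ± 0.24 for AL (FDR = 3.85e-05, 20.5% called) and 1.26 ± 0.29 for UP (FDR = 0.00129, 5.87% called). Between the continuous populations, SA exceeded OL by 0.53 ± 0.23, which did not pass the threshold (FDR = 0.0726, 29% called), although it did with DESeq2 (FDR = 0.0437). In the edgeR fit, each of the 4 pairs of a fragmented with a continuous population thus passed the test. Neither of the 2 pairs within a landscape type did, although the 95% interval of the SA to OL ratio ran from 1.05 to 1.98. Whether differences between landscape types exceeded those within a type was not tested.

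Hedgehog did not differ detectably between the sexes. Averaged over populations, males exceeded females by 0.26 ± 0.18 on the log2 scale (FDR = 0.390, 13.7% of gene models called), a ratio with a 95% interval from 0.941 to 1.53. Within populations the male excess was 0.52 ± 0.30 in AL (8.46% called), 0.24 ± 0.46 in UP (0.456% called), 0.35 ± 0.28 in SA (6.38% called) and −0.05 ± 0.37 in OL (5.4% called), with FDR between 0.317 and 1.0. The landscape difference was 0.86 ± 0.26 in females (FDR = 0.0126, 14.8% called) and 1.09 ± 0.24 in males (FDR = 0.000340, 15.6% called). The test of the difference between these values gave 0.23 ± 0.36 (FDR = 0.964, 0.425% called).

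Of the 21 cuticular protein genes used here, 18 were higher in the fragmented populations, as were the 4 hexamerins used and hedgehog. Many of these markers were named by the study for such differences, so that their direction is no separate result. The sums of the marker genes were compared with the 3 genes among individuals of the same population and sex. After the mean of each population and sex was subtracted, hedgehog had a Pearson r of −0.03 with the summed cuticular protein genes and of −0.03 with the summed hexamerins over 174 individuals, values that share each individual's library and normalization. Within populations, r with the cuticular protein genes ranged from −0.24 in SA to 0.35 in UP. Patched had r = 0.19 with the cuticular protein genes (from 0.02 in SA to 0.34 in AL). With the flight muscle genes it had 0.19 (0.43 in AL, −0.09 in UP, −0.03 in SA and −0.03 in OL). Wingless had 0.16 with the cuticular protein genes (from −0.06 in OL to 0.36 in AL) and 0.03 with the hexamerins (from −0.16 in OL to 0.45 in UP). The part of these tissues in the difference between landscape types was not tested.

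Almost all individuals had at least 1 hedgehog read. It was detected in 165 of 174 individuals, or 94.8% (95% Wilson interval 90.5 to 97.3%, an interval that covers counting error only, as do the others below). All 20 UP individuals had a read (Wilson interval 83.9 to 100%), as did 93.9% of AL (83.5 to 97.9%), 93.7% of SA (84.8 to 97.5%) and 95.2% of OL individuals (84.2 to 98.7%). These shares did not follow the levels. The median was 7 reads per individual. If all individuals of a population had shared 1 level, 99.6% would have been expected to have a read in AL and 99.9% in UP. The corresponding expected shares were 97.9% in SA and 96.6% in OL. The 9 individuals without a read had totals from 442717 to 3997856, and for 4 of them the mean level of their own population and sex predicts over 6 reads. The deepest of these was an OL male with 3997856 counts, for which 7.66 reads were predicted and which had 3 wingless reads.

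To compare detection at 1 depth, the chance of at least 1 read when an individual's counts are thinned to 1000000 was computed exactly for the 155 individuals with that total. For hedgehog this chance averaged 89.1% ± 25.1 (SD, n = 46) in AL, 98.3% ± 2.84 (n = 19) in UP, 91.03% ± 16.6 (n = 53) in SA and 77.8% ± 26.4 (n = 37) in OL. The difference between landscape types, 9.32 percentage points, did not pass the correction over gene models (permutation test, two-sided, p = 0.0128, FDR = 0.148, 4.13% called). At 500000 counts the difference was 17.6 points (FDR = 0.00267, 7.22% of gene models called). For at least 2 reads at 1000000 counts it was 22.98 points (FDR = 0.00273, 5.58% called). At 2000000 counts, where few individuals lacked a read, it was 3.78 points (FDR = 0.806, 2.44% called, 108 individuals).

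**Figure D2:**
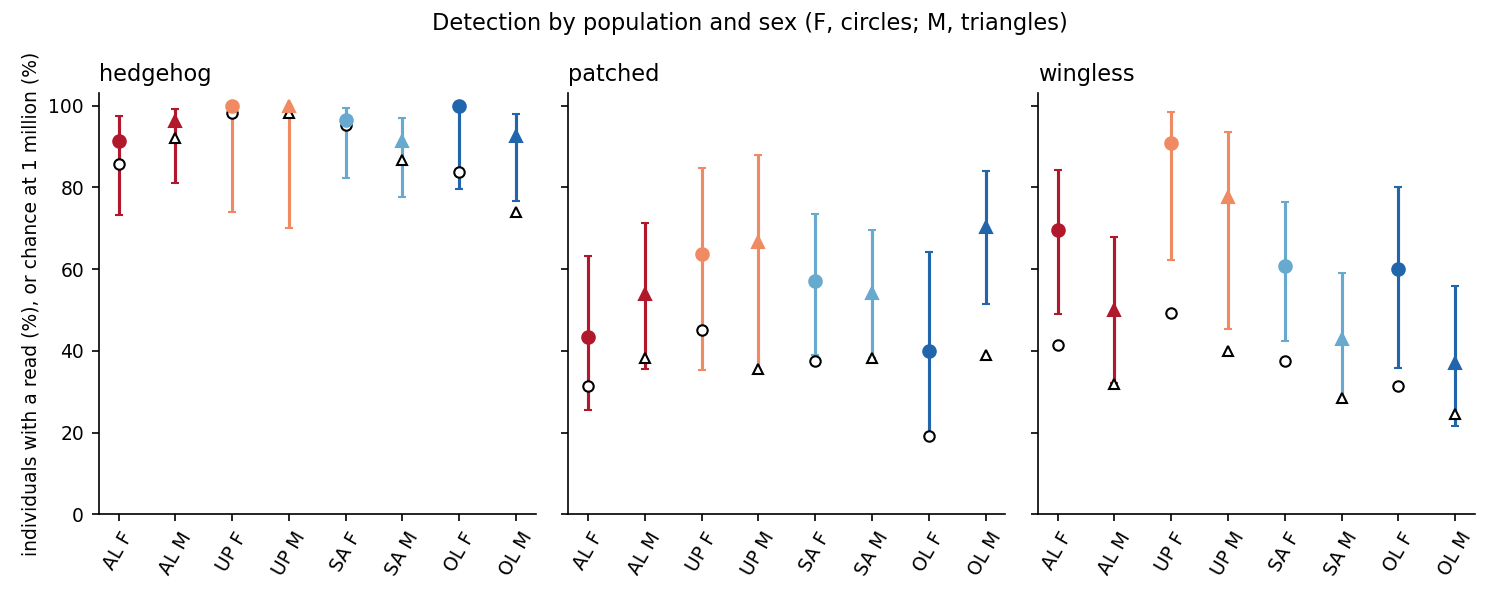
Share of individuals with at least 1 read of each gene by population and sex (filled symbols, with 95% Wilson intervals) and the mean chance of a read when counts are thinned to 1000000 (open symbols), both in percent. Hedgehog was detected in over 91% of every group, whereas patched and wingless lay between 37.04% and 90.9%, and wingless was detected in more females (circles) than males (triangles) in each of the 4 populations.

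Patched, the receptor of hedgehog, showed no difference between landscape types that passed the test. It was detected in 97 of 174 individuals, or 55.7% (Wilson interval 48.3 to 62.9%), and 29 of these had a single read. AL females ranged from 0 through a median of 0 to 3.21 normalized counts, and AL males from 0 through 0.258 to 7.93. In UP the values ran from 0 through 0.787 to 1.38 in females and from 0 through 0.450 to 1.43 in males. SA females ranged from 0 through 0.235 to 2.55, and SA males from 0 through 0.357 to 2.19. OL females ranged from 0 through 0 to 2.84 and OL males from 0 through 0.463 to 2.12. Every group reached 0, and the 5 highest individuals of all were from AL.

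The mean of patched was 0.945 ± 1.62 (SD, n = 49) in AL, 0.562 ± 0.509 (n = 20) in UP, 0.524 ± 0.659 (n = 63) in SA and 0.510 ± 0.618 (n = 42) in OL. Its log2 fold change between fragmented and continuous populations was 0.55 ± 0.30 in all individuals (FDR = 0.168; 95% interval of the ratio 0.977 to 2.20) and 0.79 ± 0.41 in the balanced set (FDR = 0.189). The value outside the balanced set had the opposite sign, −0.73 ± 0.55 (FDR = 0.499). Leaving out the highest individual, an AL male with 23 of the 316 reads, lowered the first of these values to 0.43 ± 0.29 (FDR = 0.296). Without UP, the remaining fragmented population AL exceeded the continuous populations by 0.81 ± 0.32 (FDR = 0.0403), in a fit that called 5363 of 16432 gene models. Without AL, UP exceeded them by 0.28 ± 0.37 (FDR = 0.705), where 2468 of 16423 were called. Among the 6 pairs of populations the differences ranged from 0.13 ± 0.44 for UP over SA to 0.98 ± 0.41 for AL over OL, with FDR of at least 0.0735, although DESeq2 gave FDR = 0.0397 for AL over OL. The permutation tests gave FDR = 0.518 in all individuals and 0.344 in the balanced set.

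Detection of patched did not order the populations as hedgehog did. It was found in 48.98% of AL individuals (Wilson interval 35.6 to 62.5%), 65% of UP (43.3 to 81.9%), 55.6% of SA (43.3 to 67.2%) and 59.5% of OL (44.5 to 73.0%). AL thus had the highest mean and the lowest share of individuals with a read. If all AL individuals of a given depth had shared 1 level, 81.1% would have been expected to have a read. The corresponding expected shares were 88.5% in UP, 69.4% in SA and 66.2% in OL, above the observed share in each population. At 1000000 counts the chance of a read was 35% ± 38.6 (SD, n = 46) in AL, 40.6% ± 31.1 (n = 19) in UP, 37.9% ± 36 (n = 53) in SA and 31.6% ± 30.2 (n = 37) in OL, and the difference between landscape types was 3.07 points (FDR = 0.861).

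Males and females did not differ detectably in patched either (log2 difference of males from females 0.40 ± 0.30, FDR = 0.463). It was detected in 40% of OL females (19.8 to 64.3%, n = 15) and 70.4% of OL males (51.5 to 84.1%, n = 27), the widest gap between the sexes within a population, and these intervals overlap. The male excess in AL was 0.89 ± 0.51 (FDR = 0.305), and that in OL 0.77 ± 0.62 (FDR = 0.571). The test of landscape by sex gave −0.20 ± 0.53 (FDR = 1.0).

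**Figure D3:**
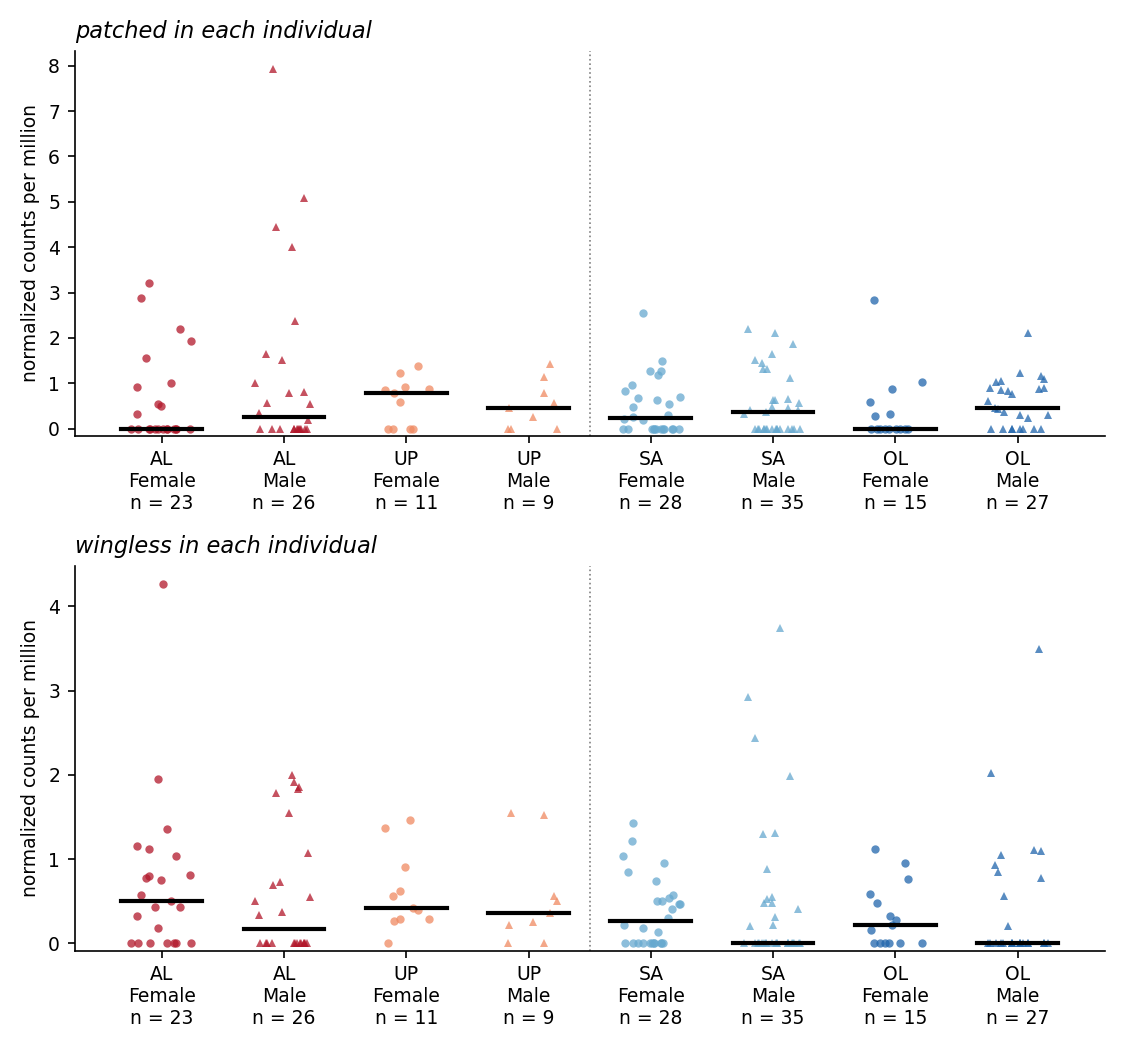
Patched (upper panel) and wingless (lower panel) level of each individual in normalized counts (CPM), by population and sex, with circles for females, triangles for males and a black line at the median. Every group reaches 0, the medians lie between 0 and 0.787, and the highest patched value (7.93) belongs to an AL male and the highest wingless value (4.27) to an AL female.

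Wingless, the Wnt ligand, passed the test between landscape types in the balanced set but not across all individuals, with the higher level in the fragmented populations in both. AL females ranged from 0 through a median of 0.506 to 4.27 normalized counts, and AL males from 0 through 0.169 to 2.0. UP females ranged from 0 through 0.424 to 1.46 and UP males from 0 through 0.357 to 1.55. In SA the values ran from 0 through 0.261 to 1.43 in females and from 0 through 0 to 3.74 in males. In OL they ran from 0 through 0.219 to 1.12 in females and from 0 through 0 to 3.49 in males. All 8 groups overlapped over most of their range. The value of 3.74 stands for 2 reads in the shallowest library of all, and shows how coarse single values of this gene are.

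The mean of wingless fell in the order of the hedgehog means, at 0.647 ± 0.837 (SD, n = 49) in AL, 0.577 ± 0.510 (n = 20) in UP, 0.449 ± 0.741 (n = 63) in SA and 0.404 ± 0.682 (n = 42) in OL, but no pair of populations passed the correction over gene models (FDR of 0.108 or more). The largest difference, of AL over OL, was 0.83 ± 0.38 (unadjusted p = 0.0303 in the edgeR fit). In all individuals the log2 fold change between landscape types was 0.63 ± 0.28 (FDR = 0.0861; 95% interval of the ratio 1.05 to 2.26; permutation test FDR = 0.134). In the balanced set it was 1.15 ± 0.38 (FDR = 0.0311; permutation test FDR = 0.0343). The call was lost without AL, with a value of 1.10 (FDR = 0.120), and without UP, with 1.16 (FDR = 0.0824). Without OL the value was 0.59 (FDR = 0.339), with counts thinned to 1000000 it was 0.55 (FDR = 0.561), and without the 8 individuals whose sex genes lay on the other side it was 1.03 (FDR = 0.0735). Outside the balanced set the difference was −0.14 ± 0.48 (FDR = 1.0). The 15 OL individuals of the balanced set had 13 wingless reads in all and a mean of 0.211 ± 0.360, against 0.511 ± 0.793 in the 27 other OL individuals.

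Detection of wingless was 59.2% in AL (Wilson interval 45.2 to 71.8%), 85% in UP (64.0 to 94.8%), 50.8% in SA (38.8 to 62.7%) and 45.2% in OL (31.2 to 60.1%). UP was also the population with the deepest libraries. At 1000000 counts the chance of a read was 36.5% ± 34.2 (SD, n = 46) in AL, 44.9% ± 26.96 (n = 19) in UP, 33.1% ± 35.3 (n = 53) in SA and 27.1% ± 32.7 (n = 37) in OL. The difference between landscape types was 10.6 points (permutation test, two-sided, p = 0.0691, FDR = 0.355). At 2000000 counts it was 20.97 points (p = 0.00697, FDR = 0.134), which did not pass the correction.

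Wingless was detected in 67.5% of females (Wilson interval 56.5 to 76.9%, n = 77) and 46.4% of males (36.8 to 56.3%, n = 97). Females had the higher share in each population, with 69.6% against 50% in AL, 90.9% against 77.8% in UP, 60.7% against 42.9% in SA and 60% against 37.04% in OL. The level did not differ detectably between the sexes, with means of 0.50 ± 0.631 in females and 0.516 ± 0.811 in males and a log2 difference of males from females of 0.05 ± 0.27 (FDR = 1.0). The medians were 0.394 in females and 0 in males. Female libraries had the larger totals, with a median of 2736846 against 2531199. At a depth of 1000000 counts, males differed from females in the chance of a read by −8.74 points on average over populations, in a test chosen after these shares had been seen (sex labels permuted within populations, p = 0.108, FDR = 0.450, 3.28% of gene models called). More females than males had wingless reads, but at equal depth this was not larger than the spread between individuals. The test of landscape by sex gave −0.45 ± 0.58 (FDR = 0.925).

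**Figure D4:**
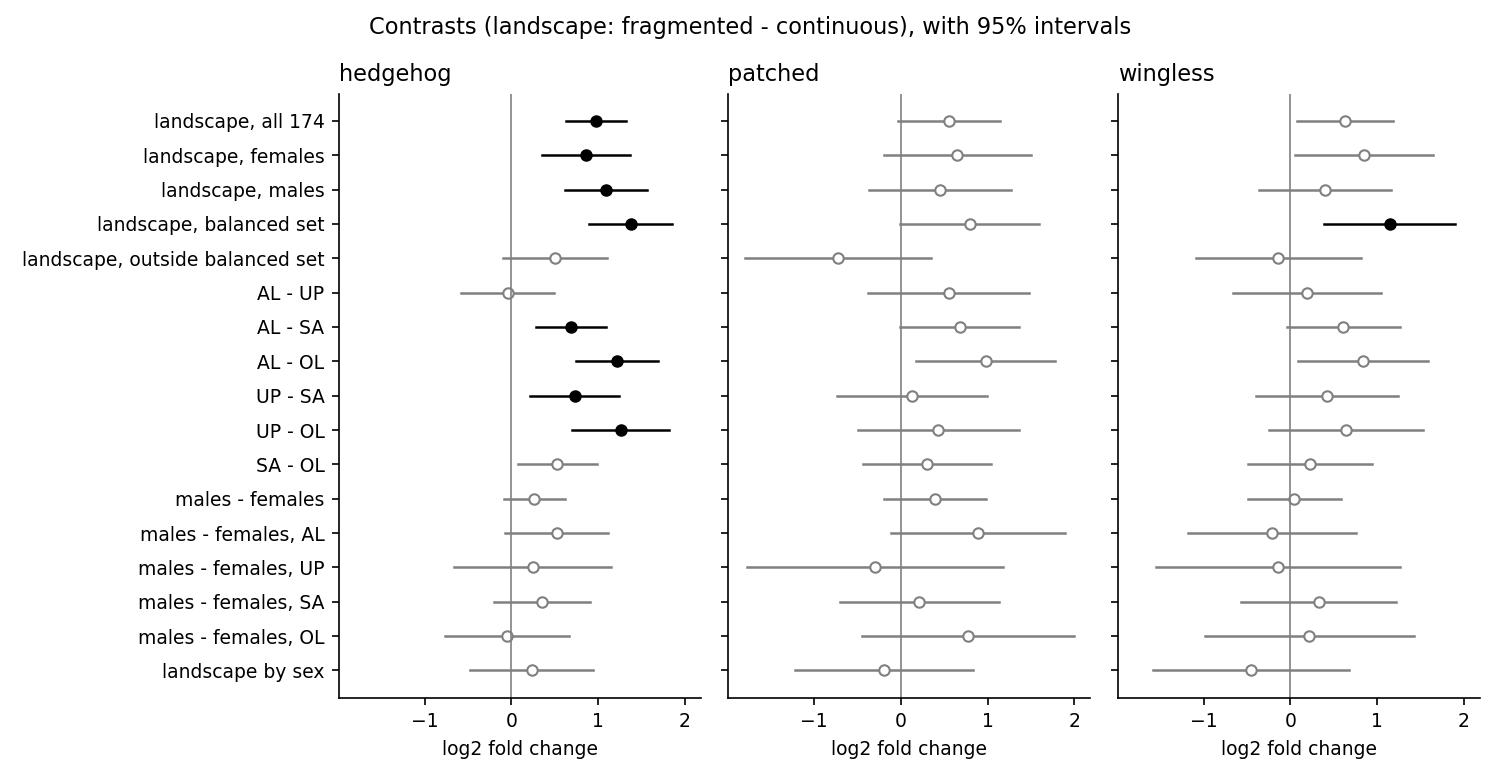
Log2 fold changes of the 3 genes with 95% intervals in each comparison, with landscape contrasts as fragmented minus continuous, and filled points where FDR<0.05 over all gene models. Hedgehog has filled points for the landscape difference in all individuals, in each sex and in the balanced set and for each pair of a fragmented with a continuous population, wingless only in the balanced set and patched in none.

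The 3 genes showed little common variation among individuals. After subtraction of the population and sex means, r over 174 individuals was −0.02 between hedgehog and patched, −0.08 between hedgehog and wingless and 0.11 between patched and wingless, values given as a description because the points share library depth and many are zeros. Within populations r ranged from −0.28 to 0.31. Reads of all 3 genes were present in 61 individuals, which had a median total of 4074457 counts, and 39 individuals with a median total of 1453941 had reads of hedgehog alone. Hedgehog was present with patched but not wingless in 34 individuals and with wingless but not patched in 31. Only 4 individuals had none of the 3, and 5 had patched or wingless without hedgehog.

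For each gene, the gene models that varied most like it were sought among those with a mean normalized count of at least 1. Hedgehog was most similar to MCINXTMP_014139 (r = 0.38), MCINXTMP_014889 (r = 0.36) and MCINXTMP_012743 (r = 0.36), over 174 individuals and after subtraction of the population and sex means. The median r of hedgehog with all 9253 gene models was 0.01 and the 99th percentile 0.25. Patched was most similar to MCINXTMP_005241 (r = 0.48), MCINXTMP_000825 (r = 0.45) and MCINXTMP_000512 (r = 0.45), all detected in every individual, with mean levels of 6309, 597 and 83.6 normalized counts. Within single populations these r ranged from 0.12 to 0.68. Wingless was most similar to MCINXTMP_008072 (r = 0.36), MCINXTMP_007136 (r = 0.34) and MCINXTMP_008803 (r = 0.34). None of these 9 gene models is among the pathway genes or markers used here. Patched itself had r = 0.21 with the log2 total count (from −0.09 in OL to 0.66 in UP), and wingless 0.17 (from −0.07 in OL to 0.40 in AL).

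Among 17 core genes of the hedgehog pathway named by annotation, hedgehog included, 3 were higher and 1 lower in the fragmented populations and 13 did not pass the test. This share, 23.5%, lies near the 27% of all gene models, and their median log2 fold change was 0.01, as over all gene models (0.01). Smoothened (MCINXTMP_008487), the transducer that patched silences, had 0.01 ± 0.32 (FDR = 1.0) and was detected in 77.6% of individuals. The match to cubitus interruptus (MCINXTMP_005277), the transcription factor of the pathway, had −0.10 ± 0.20 (FDR = 0.812). The casein kinase gene CkIalpha (MCINXTMP_014722), whose Drosophila counterpart phosphorylates cubitus interruptus and armadillo, was higher in the fragmented populations (0.76 ± 0.20, FDR = 0.00140), with a mean of 8.82 ± 8.78 (SD, n = 49) in AL but 3.54 ± 2.18 (n = 20) in UP and 4.73 ± 3.21 (n = 42) in OL. Another CkIalpha gene model, MCINXTMP_014721, with a mean of 26.4 normalized counts against 4.89, did not pass (0.04 ± 0.12, FDR = 0.938). The kinase fused (MCINXTMP_014261), a transducer below smoothened, was higher by 0.35 ± 0.12 (FDR = 0.0225), with means of 9.36 in AL, 10.6 in UP and 9.68 in OL against 6.45 in SA. In the balanced set this gene model did not pass (0.18 ± 0.21, FDR = 0.628). Another fused gene model, MCINXTMP_008220, had 0.21 ± 0.16 in all individuals (FDR = 0.348). The patched-related gene MCINXTMP_011439, an abundant transcript, fell by 1.48 on the log2 scale in the fragmented populations (SE 0.29, FDR = 1.32e-05), from 490 ± 266 normalized counts in SA and 280 ± 283 in OL to 215 ± 365 in AL and 82.1 ± 107 in UP.

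Among 24 core genes of the Wnt pathway, 4 were higher in the fragmented populations, none was lower and 20 did not pass the test. This share was 16.7% against 27% of all gene models, and the median log2 fold change 0.19 against 0.01. The receptor gene frizzled 3 (MCINXTMP_012998), in Drosophila itself a target of wingless signalling, had the clearest difference at 1.41 ± 0.13 (FDR = 1.25e-18), with 16.1 ± 9.64 (SD, n = 49) in AL, 9.91 ± 3.92 (n = 20) in UP, 3.87 ± 2.33 (n = 63) in SA and 5.62 ± 2.40 (n = 42) in OL. The other receptors did not pass the test, with 0.20 ± 0.33 for frizzled (MCINXTMP_011563, FDR = 0.757) and 0.02 ± 0.23 for frizzled 4 (MCINXTMP_004758, FDR = 1.0). Of the Wnt ligands, 1 of 3 Wnt5 gene models was higher (MCINXTMP_013420, 1.03 ± 0.19, FDR = 7.35e-06), with means of 2.63 ± 1.87 in AL, 2.88 ± 1.77 in UP, 1.41 ± 1.12 in SA and 1.36 ± 1.39 in OL. The other Wnt5 models had 0.04 ± 0.26 (MCINXTMP_013415, FDR = 1.0) and −0.26 ± 0.20 (MCINXTMP_013043, FDR = 0.352), and Wnt7 (MCINXTMP_012018) had −0.21 ± 0.15 (FDR = 0.324). Wnt6 had 0.12 ± 0.17 in MCINXTMP_006036 (FDR = 0.669), whereas MCINXTMP_006034 had 19 reads in all (FDR = 0.187). The Wnt10 matches had 57 and 14 reads (MCINXTMP_011208, FDR = 0.899; MCINXTMP_011209, for which the fit gave no usable error). The kinase nemo (MCINXTMP_005676), a Wnt inhibitor in Drosophila, was higher by 0.42 ± 0.09 (FDR = 0.000168), with means of 33.1 in AL, 34.7 in UP and 34.3 in OL against 19.9 in SA, and the planar polarity gene Van Gogh (MCINXTMP_000933) by 0.25 ± 0.09 (FDR = 0.0341). In the balanced set neither passed, with 0.30 ± 0.13 for nemo (FDR = 0.121) and 0.37 ± 0.14 for Van Gogh (FDR = 0.0507).

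**Figure D5:**
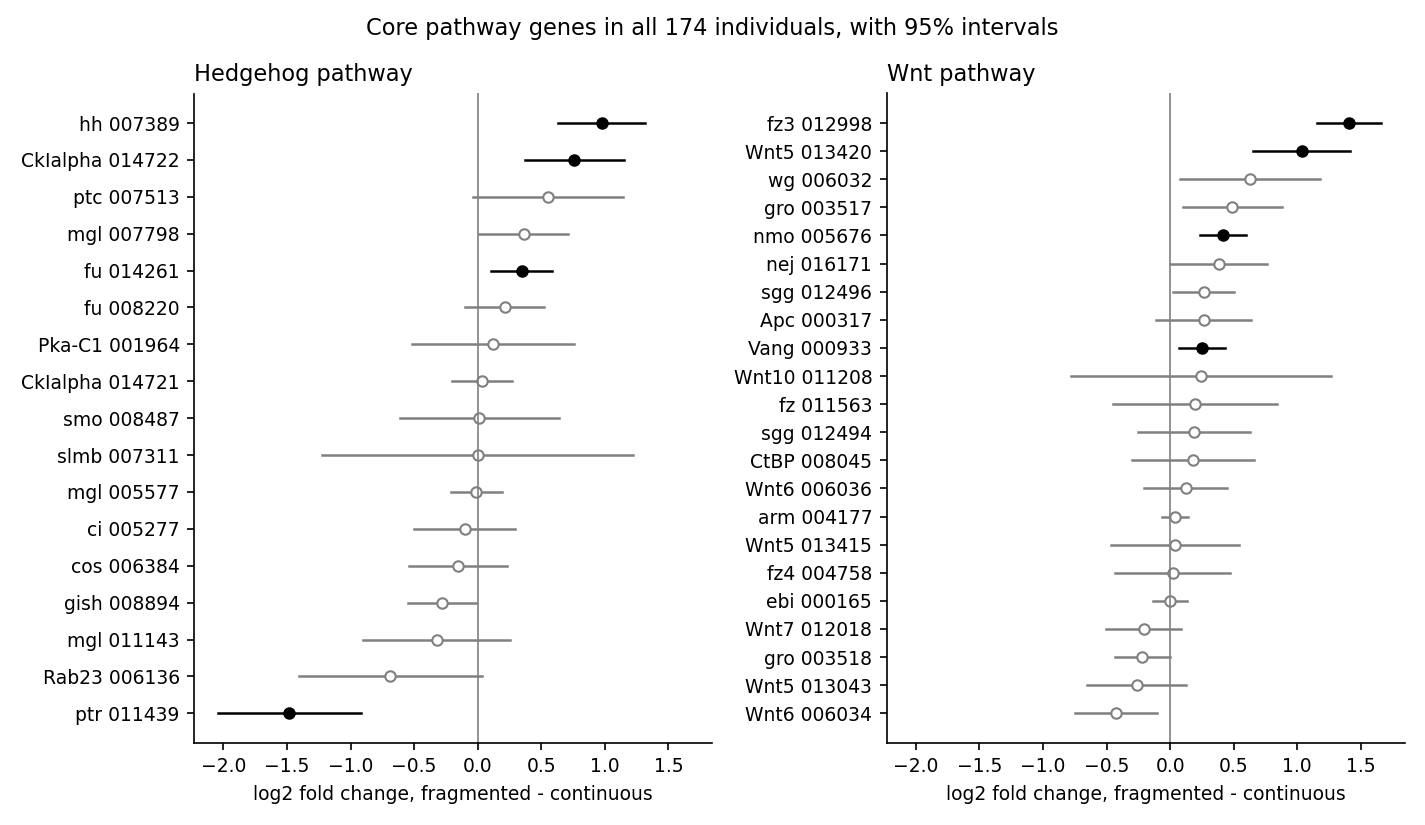
Log2 fold change between fragmented and continuous populations for core genes of the Hedgehog pathway (left) and the Wnt pathway (right) in all 174 individuals, with 95% intervals and filled points at FDR<0.05. Gene labels carry the last digits of the identifier, and a Wnt10 match with 14 reads and a dishevelled match with 79 reads are not drawn because their intervals are too wide. Hedgehog is the highest point of the left panel on the fold change axis and frizzled 3 that of the right panel, and among the filled points patched-related is the only one below 0.

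Over the wider lists of matches to Drosophila pathway genes, 8 of 95 Hedgehog pathway genes were higher and 16 lower in the fragmented populations, with a median of −0.04. For the Wnt pathway 12 of 93 were higher and 6 lower, with a median of 0.05. The shares that passed, 25.3% and 19.4%, were below the 27% of all gene models, and the lists share genes. In the balanced set 20% of the Hedgehog list and 14% of the Wnt list passed, against 16.2% of all gene models. Between the sexes, 3 of the 41 core genes passed the test, or 7.32% against 13.7% of all gene models, all higher in males, namely a Pka-C1 match (MCINXTMP_001964, 1.33 ± 0.33, FDR = 0.00188), nemo (0.30 ± 0.09, FDR = 0.0155) and CkIalpha (MCINXTMP_014721, 0.37 ± 0.12, FDR = 0.0257). No core gene passed the test of landscape by sex, which called 0.425% of all gene models.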

How the data were processed

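The authors extracted thorax RNA, made polyA-anchored, strand-specific libraries, called bases with CASAVA 1.7, mapped reads with TopHat2 2.0.5 to genomic scaffolds and counted them within 16667 gene models, so that reads in 3′ ends outside a model are lost. The deposited raw counts are whole numbers. The authors also deposited TMM-normalized values, used here as a signal, which are a constant multiple of the raw counts within an individual. Members and gene lists were chosen with earlier results of these data known.

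Counts were fitted with edgeR 4.0.16 in R 4.3.3 (TMM, quasi-likelihood F-test, 1 mean per population and sex, all gene models with a read, Benjamini-Hochberg). The balanced set holds the 15 largest totals per population and was fitted with 1 mean per population. Standard errors are the log2 fold change over the square root of F, and intervals of fold changes 95% Wald intervals. Permutations used log2(normalized count + 1). Detection was thinned by the hypergeometric distribution, with 95% Wilson intervals. DESeq2 1.42.0 and scipy 1.17.1 served for alternatives and intervals. Pathway genes are the study's blastx matches. Named are the members, the core genes past FDR<0.05 together with smoothened, the cubitus interruptus match, Wnt ligands and frizzled receptors, and the 3 most similar gene models of each member.

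In counts simulated for all individuals with 2-fold changes between landscape types, 89 of 100 changed gene models with 1000 to 3000 reads in all were recovered and 32 of 100 with 200 to 400 reads. There were 41 false calls among 16403 gene models, 31 of them with under 200 reads, fewer than any of the 3 genes. Of unchanged gene models with 200 to 400 reads, the range of patched and wingless, 7.43% had an unadjusted p below 0.05 in the edgeR fit. With 1000 to 3000 reads, the range of hedgehog, this share was 3.68%. Each unchanged gene model was simulated with 1 mean for all individuals, so that differences between populations of 1 landscape type were not covered. The 3 individuals that the study removed as genotype outliers could not be assigned and were kept.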

Additional observations from a re-analysis of the deposited data

Results flagged for a closer look

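Among the 9 UP males, the individual with the highest hedgehog level (15.0 normalized counts, 58 reads) stood apart from the next (5.88), with a gap that made up 0.706 of the range of the group. The threshold for 9 individuals, 0.493, is passed by chance in about 1 in 20 groups, and this group, the only one of 10 or fewer individuals, was checked for 3 genes at both ends.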

How the results depend on the processing

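For hedgehog, the landscape difference kept its direction under all 19 alternatives in all individuals (log2 0.51 to 1.47) and all 14 in the balanced set (1.15 to 1.51). It lost the threshold outside the balanced set (0.51) and with balanced counts thinned to 1000000 (1.15). Thinning also took wingless in the balanced set to 0.55, and leaving out AL, UP, OL or the 8 individuals with sex genes on the other side gave 1.10, 1.16, 0.59 and 1.03, none past the threshold. In all individuals, wingless passed with only the balanced set (1.32) and turned outside it (−0.14), and patched passed without UP (0.81) and turned outside the set (−0.73). Thinned to 2000000, detection of patched turned to −4.92 points, and detection of hedgehog passed at 500000 counts (17.6 points) and for 2 reads (22.98 points).

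The sex difference never passed. It turned for patched (−0.27) and wingless (−0.090) outside the balanced set, and for wingless without SA (−0.056), without OL (−0.0088) and without the 8 individuals with sex genes on the other side (−0.038). In alternatives chosen after the data were seen, AL minus UP for hedgehog turned with RLE (0.050) and DESeq2 (0.049), SA minus OL for hedgehog (0.55) and AL minus OL for patched (1.14) passed with DESeq2, and UP minus SA for patched turned with the total count as a covariate (−0.11) and without the 8 individuals with sex genes on the other side (−0.048).

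Of all gene models, 4443 differed between landscape types in all individuals, against 2396 with counts thinned to 1000000, 1174 outside the balanced set, 2298 in it, 2588 in females, 2355 in males, 2468 without AL and 1835 without SA. The count rose to 5363 without UP and to 6241 without OL. In the balanced set 2652 became 780 when thinned, 1663 without AL, 853 without SA, 2982 without UP and 3385 without OL. Between the sexes 2249 became 1204, 494, 772 and 1388 when thinned, outside the balanced set, in it and without SA. Patched and wingless fail the filter on low counts (minimum count 10) and have no value under it. No paired analysis was possible because the labels carry no replicate numbers.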

Other observations

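The match to dishevelled (MCINXTMP_013102), the transducer below frizzled, was singled out after its values were seen. Of its 79 reads, 77 were from SA, where 33 of 63 individuals had a read (52.4%, Wilson interval 40.3 to 64.2%) and the highest count was 8. A single read was found in 1 of 49 AL and in 1 of 20 UP individuals, and none in 42 OL individuals (Wilson interval 0 to 8.38%). The cause was not tested.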
